A study of Mus musculus with 22 samples.

Results

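Periductal spots are the capture spots that border the epithelial ducts of the mouse mammary gland on a spatial array without being rich in epithelial RNA themselves. A spot was called epithelial-rich when at least 3 of its UMIs (unique molecular identifiers, each counted as 1 captured RNA molecule) and at least 0.3% of them came from Epcam, Krt8, Krt19, Krt7, Cldn7, Krt5 and Krt14. A periductal spot was any other spot with an epithelial-rich spot among its 6 direct array neighbours. The periductal spots together are called the rim below. Distant spots, the reference, lay more than 5 array rows or 10 array columns from every epithelial-rich spot. Of 24815 spots under tissue, 22235 had 500 or more UMIs and entered these classes. They held 606 epithelial-rich, 1692 periductal and 9629 distant spots. The spots were chosen by the measured UMIs of these 7 genes, so those genes were left out of every test.

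Mammary ducts are tubes of luminal cells wrapped by contractile myoepithelial cells, which rest on a basement membrane of laminins and type IV collagen. Around this layer lie fibroblasts, fibrillar collagen and vessels, and beyond them the adipocytes of the fat pad. Matrix composition, matrix-cleaving proteases, and signals exchanged between epithelium and stroma are known regulators of duct growth and branching.

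The sections were cut from mammary gland of C57BL/6J mice, all female and virgin, 2 sections at 3 months and 2 at 18 months of age, among 22 samples of a study of mammary gland ageing. No agent or allele separates the groups. Tissue was fixed in formalin and embedded in paraffin, and RNA was read through gene probes, so low values include probe background. The labels do not say whether sections of one age come from separate mice, and p-values then measure the spread between sections, which may be technical. The 3-month sections held 40684354 and 29631590 UMIs, with medians of 8041 and 6264 per spot. The 18-month sections held 19085122 and 21155333, with medians of 1762 and 1077. The numbers of the sections are the replicate numbers of the labels. Values are given below in the order 3-month section 1, 3-month section 2, 18-month section 1, 18-month section 2.

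The sections held 462, 483, 200 and 547 periductal spots, bordering 56, 56, 24 and 76 separate patches of epithelial-rich spots. They made up 10.6%, 12.2%, 3.21% and 7.13% of the spots with 500 or more UMIs. Most touched only 1 epithelial-rich spot (331, 336, 142 and 382 spots). The 18-month sections had more distant spots (4111 and 3530) than the 3-month sections (999 and 989).

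**Figure D1:**
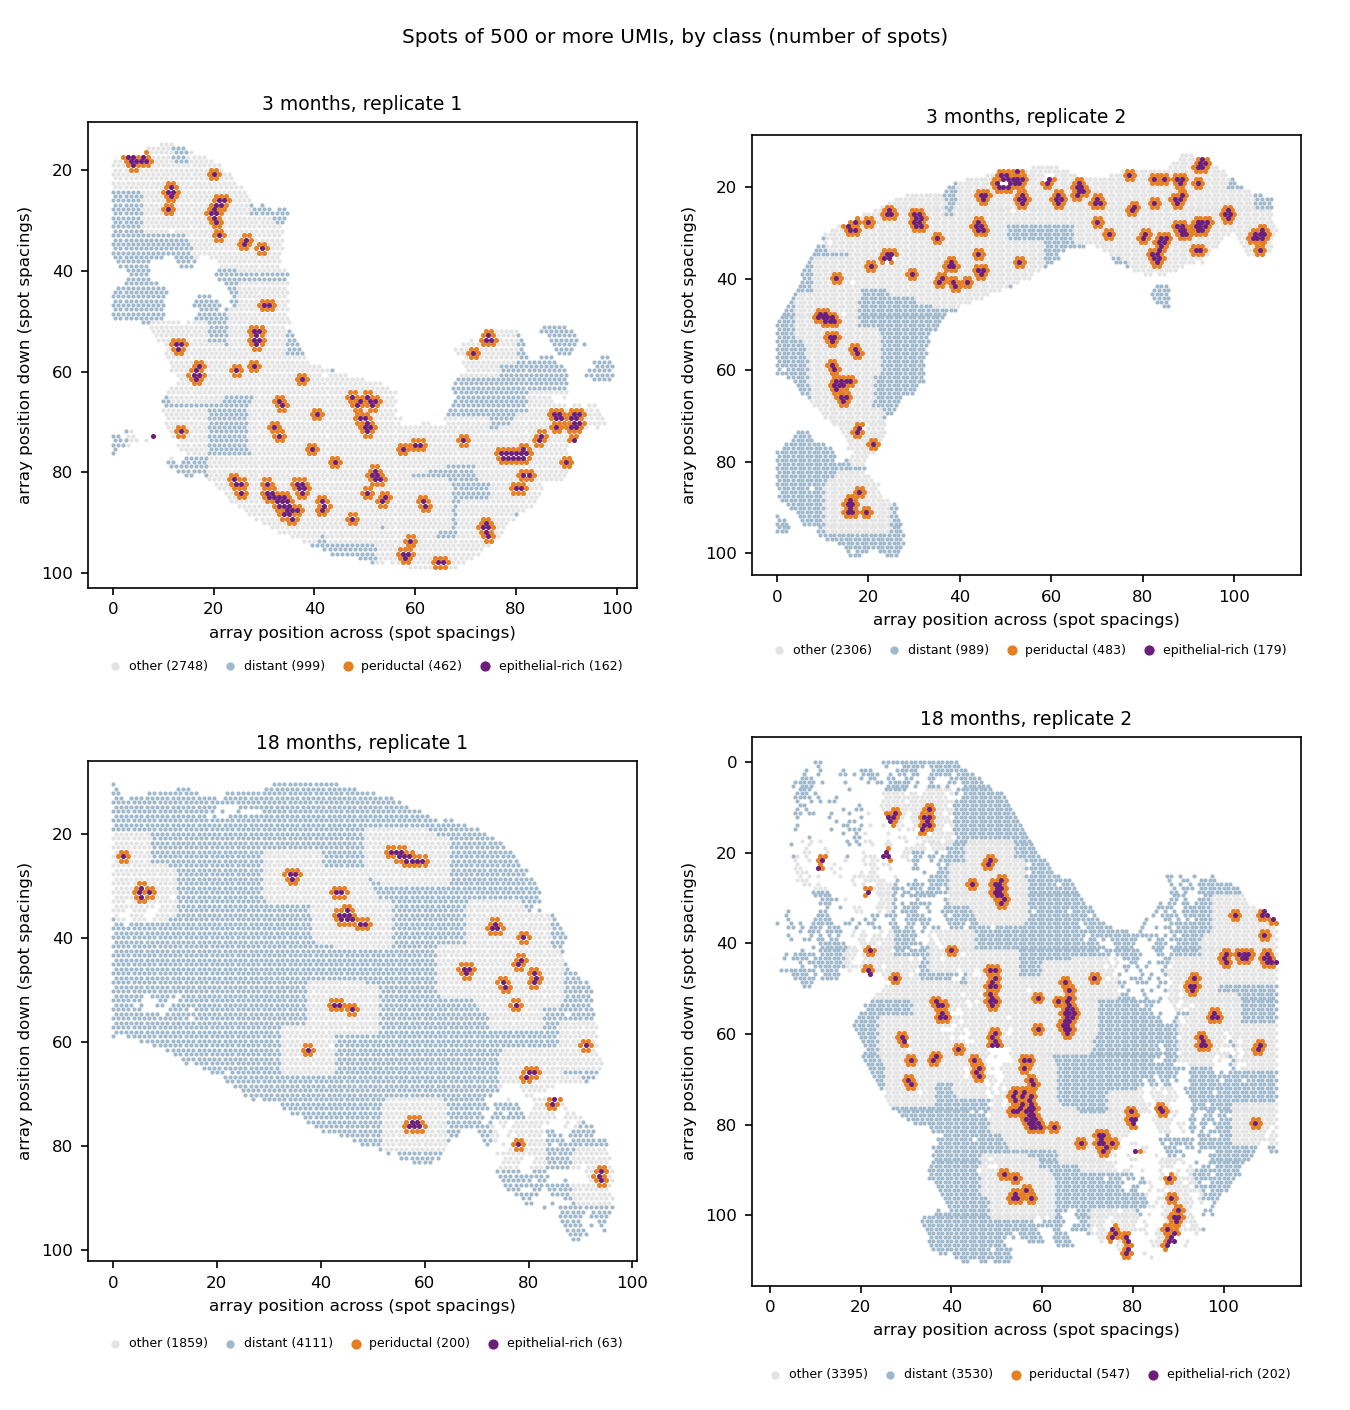
Array positions of spots with 500 or more UMIs in the 4 sections, in array columns (x) and rows (y), coloured by class. Periductal spots form thin rims around scattered patches of epithelial-rich spots, and the 18-month sections hold more distant spots (4111 and 3530) than the 3-month sections (999 and 989).

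The rule genes together made up 1316, 1160, 1370 and 1155 CPM (UMIs per 1000000 of the summed UMIs of a class in a section) in periductal spots. The same sum was 4821, 5602, 4367 and 5285 CPM in epithelial-rich spots and 78.2, 103, 84.7 and 74.2 CPM in distant spots. That the rim lies between the other classes is set by the rule. With each spot thinned to 500 UMIs, 40.0%, 41.6%, 41.0% and 33.8% of periductal spots held a rule-gene UMI, against 4.00%, 3.84%, 2.70% and 4.02% of distant spots. Unthinned shares were 96.5%, 97.1%, 76.5% and 63.4% against 32.2%, 20.5%, 10.8% and 12.0%. At the threshold, 37, 38, 17 and 47 periductal spots held 0.25 to 0.3% rule-gene UMIs, and 32, 34, 18 and 45 epithelial-rich spots held 0.3 to 0.35%. A spot can hold several cells of different types, and in summed spots fewer cells of a type and less RNA per cell cannot be told apart.

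Periductal spots yielded more RNA than distant spots in all 4 sections. Median UMIs per periductal spot were 10091, 7402, 2923 and 1850, against 5064, 4225, 1778 and 1278 per distant spot. The ratios were 1.99, 1.75, 1.64 and 1.45, a mean difference of 0.76 ± 0.19 (SD, n = 4) on the log2 scale. An exact two-sided sign-flip permutation test over sections found 2 of 16 sign arrangements as extreme as the observed one, the smallest p that 4 sections allow. Epithelial-rich spots, which needed 3 UMIs of the 7 genes, were deeper still (medians 15778, 11770, 9748 and 4778), and how far this choice set the depth of their neighbours was not tested. Among spots with no rule-gene UMI the mean log2 difference was 0.144. That choice kept 16, 14, 47 and 200 periductal spots, with medians of 5059, 4205, 1726 and 1272 UMIs. Shallow spots are likelier to hold no such UMI, and how far this set the smaller difference was not tested.

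Gene by gene, 576 of 18870 genes were higher and 372 lower in periductal than in distant spots at an adjusted p under 0.05 (3.05% and 1.97% of the genes tested, 5.02% in all). The test was edgeR's quasi-likelihood test on UMIs summed per section and class, with the section as a block and Benjamini-Hochberg adjustment, and all adjusted p-values below come from it. Leaving out 1 section moved the total of 948 to between 386 and 1086, with 386 without 18-month section 2 and 558 without 18-month section 1. Of the higher genes, 444 had a mean level of 10 CPM or more and the same direction in all 4 sections. For 383 of these 444 the epithelial-rich spots were higher still in all 4 sections, and for 10 the periductal spots were at or above the epithelial-rich spots in all 4.

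The largest differences belonged to genes of ductal epithelium. They are carried by the cells that the rule looked for, so they are given as a description of the rim and no test is read from them. Wfdc18, a whey acidic protein family member of luminal cells, was at 86.0, 42.4, 456 and 228 CPM in periductal spots. It was at 5.59, 2.77, 22.1 and 10.1 CPM in distant spots and at 328, 220, 1539 and 899 CPM in epithelial-rich spots. Its level in the rim thus lay between the other classes in every section, with a log2 fold change over distant spots of 4.23 (SE 0.17). Krt17, a basal keratin, was at 25.6, 18.0, 95.5 and 37.9 CPM against 1.21, 0.923, 2.87 and 1.17 CPM. Krt15, another basal keratin, was at 29.4, 13.6, 117 and 18.9 CPM against 0.755, 0, 4.35 and 0.53 CPM. Fcgbp, a secreted mucus-associated protein, was at 147, 67.8, 730 and 425 CPM against 8.61, 7.20, 27.5 and 19.6 CPM. Crabp1, a retinoic acid binding protein, was at 14.2, 9.87, 51.1 and 35.4 CPM against 1.21, 1.11, 0.699 and 1.48 CPM. The other genes among the 10 with the largest fold change were Cxcl15, Col9a2, Fxyd3, Wfdc2 and Lmx1b, with log2 fold changes from 3.87 to 4.42. All 20 luminal genes were above distant spots in each section. Of all genes tested, 60.8%, 52%, 56.5% and 43.7% were. The basal keratin Krt15 was the sole called gene among 11 skin keratinocyte markers.

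The luminal signal was graded within the rim. Summed over the luminal list it was 1905, 1400, 2553 and 2055 CPM in periductal spots with 1 epithelial-rich neighbour, and 2928, 2441, 4325 and 3571 CPM in those with 2 or more. The adipocyte list went the other way, from 123700, 144000, 75570 and 77970 CPM with 1 such neighbour to 113300, 124500, 50100 and 57780 CPM with more. Spots with more duct around them therefore held a larger share of luminal and a smaller share of adipocyte RNA in every section. Their median UMIs were also higher (11150, 7501, 3688 and 2269 against 9901, 7338, 2490 and 1636). The shares do not give amounts of RNA per spot.

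The 10 genes at or above the epithelial-rich level throughout were Mmp3, Frem1, Lama2, Lum, Slc39a8, Sparcl1, Hsd11b1, Adamts12, Nes and Peg3. They were named for being high in the rim against both other classes, so their levels are the result, beside the test over all genes. Mmp3 encodes stromelysin-1, a fibroblast protease that cleaves basement membrane and other matrix proteins. It lies at chr9:7445822-7455975 (this and the positions below from RefSeq, GRCm38.p6, whole gene). Mmp3 was at 198, 290, 756 and 415 CPM in periductal spots. It was at 140, 156, 123 and 145 CPM in distant spots and at 181, 242, 500 and 349 CPM in epithelial-rich spots. No periductal value overlapped a distant one, and the 18-month sections showed the widest gaps. The log2 fold change over distant spots was 1.37 (SE 0.29, adjusted p = 0.0261).

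By array distance, Mmp3 in 18-month section 1 ran from 500 CPM in the epithelial-rich spots to 756 at 1 step, 404 at 2 steps, 224 at 3 and 126 at 5 steps. In 3-month section 1 the same steps gave 181, 198, 169, 137 and 137 CPM, a shallower fall.

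Lama2, the laminin alpha 2 chain, is a basement membrane component of muscle, nerve and stroma (chr10:26981285-27617191). It was at 147, 173, 155 and 115 CPM in the rim against 107, 97.1, 39.5 and 46.5 CPM in distant spots and 145, 159, 96.3 and 89.5 CPM in epithelial-rich spots. The log2 fold change over distant spots was 1.10 (SE 0.22, adjusted p = 0.0184). Frem1, a basement membrane associated matrix protein (chr4:82897920-83052506), was at 23.5, 15.8, 28.2 and 12.4 CPM against 9.06, 7.57, 8.07 and 10.1 CPM in distant spots. Its gap was narrow in 18-month section 2 and more than 2-fold in the rest (log2 fold change 1.14, SE 0.23, adjusted p = 0.0191). Lum encodes lumican, a proteoglycan that binds fibrillar collagen (chr10:97565501-97572703). It was at 562, 348, 629 and 518 CPM against 374, 292, 183 and 242 CPM in distant spots, with both classes overlapping in the 3-month sections. Its adjusted p of 0.0487 lay just under the threshold, at a log2 fold change of 0.91 (SE 0.23).

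Among the other 6, Adamts12 encodes a secreted metalloprotease (log2 fold change 0.74, adjusted p = 0.0294). Sparcl1 encodes a matricellular protein (0.79, adjusted p = 0.0333), and Hsd11b1 the enzyme that regenerates active glucocorticoid (0.76, adjusted p = 0.0242). Slc39a8, a zinc and manganese importer, reached 0.81 (adjusted p = 0.0468). Nes encodes the intermediate filament nestin (0.66, adjusted p = 0.0403), and Peg3 is an imprinted zinc finger gene (0.51, adjusted p = 0.0411). For 7 of the 10, all but Hsd11b1, Peg3 and Slc39a8, the level 1 step from the epithelial-rich spots was the highest of steps 0 to 5 in all 4 sections. Their order against epithelial-rich spots was fixed by how they were named, so no test of it is given. These are modest differences that rest on few sections. None of the 10 kept its call over distant spots through every omission of 1 section. Without 18-month section 1, 10 of them lost it, and without 18-month section 2, 9 did. Without 3-month section 1 and without 3-month section 2 the losses were 4 and 6. Mmp3 then stood at 0.99 (adjusted p = 0.0775) without 18-month section 1 and at 1.26 (adjusted p = 0.206) without 18-month section 2.

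**Figure D2:**
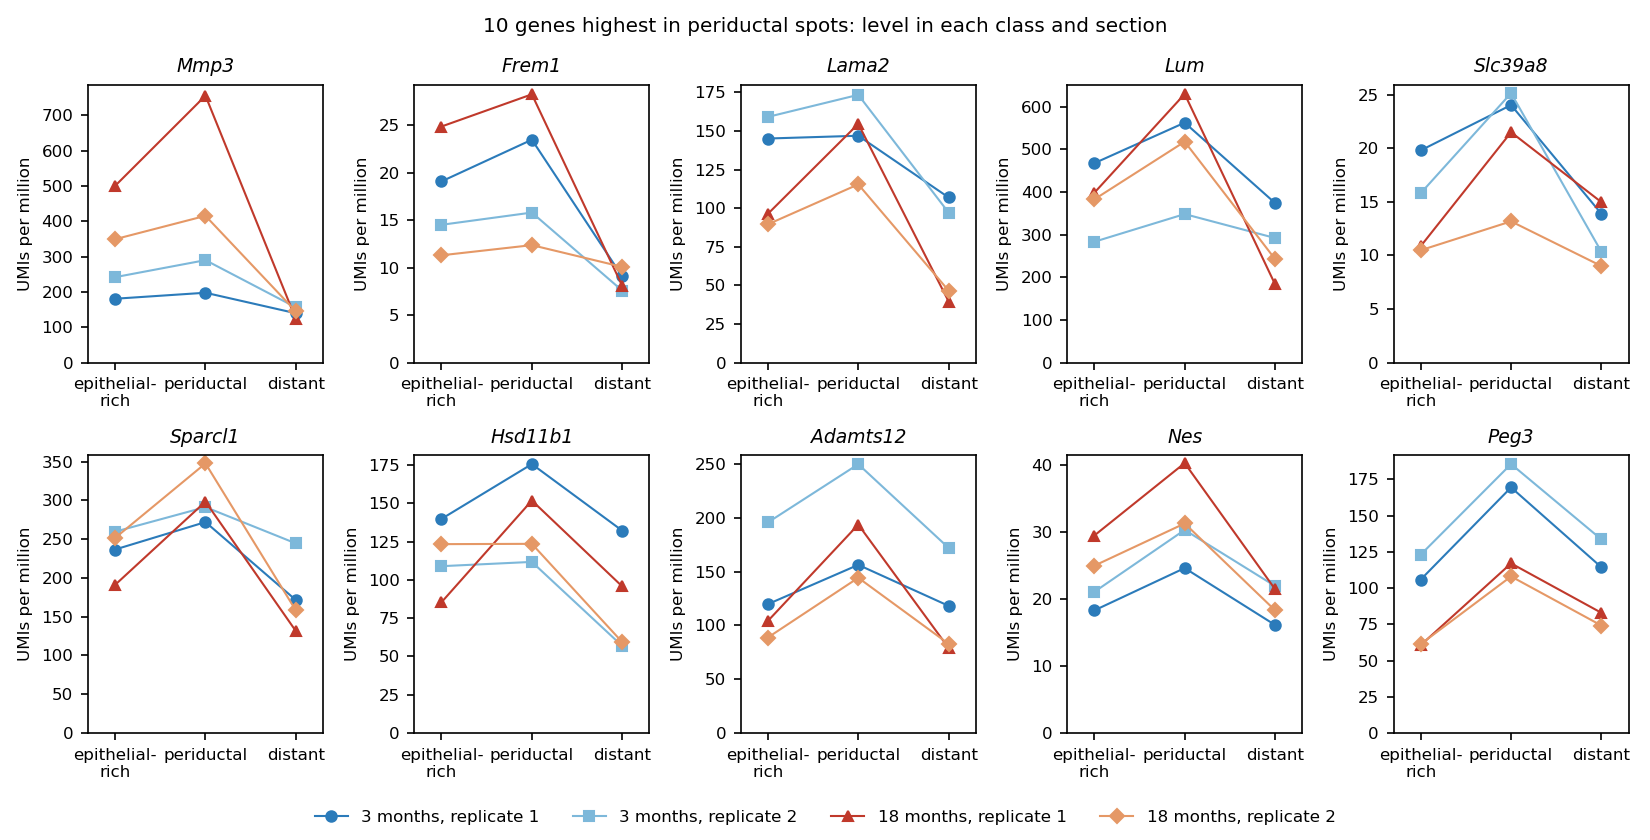
Levels (CPM) of 10 genes named for standing at or above both other classes, in epithelial-rich, periductal and distant spots of each section. Lines join the classes of 1 section. Periductal points lie at or above the others in each section, and the gap to distant spots for Mmp3 is widest in the 18-month sections (756 and 415 against 123 and 145 CPM).

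Of 24 basement membrane genes (laminins, type IV collagens, nidogens and related genes), 11 rose, none fell and 13 did not pass, where 3.05% of all genes rose, with a median log2 fold change of 0.66 against 0.0153 over all genes. By section, 19, 19, 24 and 23 of the 24 were above distant spots. The 11 fell into 2 sets when compared with the epithelial-rich spots. One set of 8, among them Lama1, Lama3, Lama5, Lamb3, Col4a6, Col7a1 and Col17a1, was lower in the rim than in the epithelial-rich spots. Lama3 and Lamb3 encode laminin chains of epithelia, and Col17a1 and Col7a1 a hemidesmosome collagen and the anchoring fibril collagen. Lama3, for example, was at 12.2, 11.1, 57.8 and 34.6 CPM in the rim and at 34.4, 54.9, 138 and 73.4 CPM in epithelial-rich spots, against 1.06, 3.32, 5.20 and 4.35 CPM in distant spots. Lama2, Lamc3 and Col18a1 were higher in the rim than in both other classes. Lamc3, the laminin gamma 3 chain, was at 48.3, 54.8, 83.4 and 37.9 CPM against 23.6, 22.9, 16.3 and 8.69 CPM in distant spots (log2 fold change 1.61, SE 0.23, adjusted p = 0.00335). It was at 39.3, 44.0, 66.8 and 40.3 CPM in epithelial-rich spots, so in 18-month section 2 the rim was slightly lower. Col18a1, the source of endostatin, differed less (0.54, adjusted p = 0.0439). The counts without 1 section ran from 9 to 12 of 24.

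The same split ran through the whole basement membrane list against epithelial-rich spots, a contrast in which 17.3% of 15540 genes tested were higher in the rim and 12.6% lower (29.8% in all). Here 12 members were higher in the rim, among them Lama2, Lama4, Lamb1, Lamc1, Col4a1, Col4a2, Nid1, Nid2 and Hspg2. Another 10 were lower, among them Lama1, Lama3, Lama5, Lamb3, Col4a5, Agrn and Col17a1. Scaling by library size alone shifted the median over all genes in this contrast from -0.0423 to -0.322 and gave 8 higher and 11 lower.

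Fibroblast and fibrillar matrix genes gave few calls over the 4 sections. Of 30 matrix genes 2 rose, Postn and Lum (3.05% of all genes rose), none fell, and the median log2 fold change was 0.36. Postn, which encodes periostin, was at 838, 1213, 1364 and 592 CPM in the rim against 444, 669, 267 and 205 CPM in distant spots (1.40, SE 0.24, adjusted p = 0.00815). Its epithelial-rich levels of 910, 1234, 1247 and 705 CPM were close to the rim's. Both calls were absent without 18-month section 2. Of 10 fibroblast genes, Lum rose and Pi16 fell. Pi16 marks adventitial fibroblasts and was at 93.8, 51.1, 52.4 and 61.8 CPM in the rim against 673, 260, 61.5 and 180 CPM in distant spots (-1.89, SE 0.35, adjusted p = 0.0127). It was lower in every section, and the gap was small in 18-month section 1.

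Along the array steps, the matrix list summed to 19480, 17760, 17310 and 12480 CPM in epithelial-rich spots and 23430, 22060, 26900 and 19810 CPM in the rim. At 2 steps it was 21900, 19980, 21690 and 17090 CPM, and in distant spots 22490, 19790, 12120 and 11740 CPM. The rim was thus the highest of steps 0 to 5 in all 4 sections, and the same held for the fibroblast and basement membrane lists. The fibroblast list shares members with the matrix list, among them Col1a1, Col1a2, Col3a1 and Lum, so these 2 lists are not separate evidence. Beyond steps 0 to 5, the distant spots of 3-month section 1 held 18550 CPM of the fibroblast list, above the 17520 CPM of its rim. For basement membrane in 3-month section 1 the margin was small (4061 CPM at 1 step, 4047 CPM at 2). Between the rim and the distant spots the matrix sum differed less at 3 months than at 18 months.

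**Figure D3:**
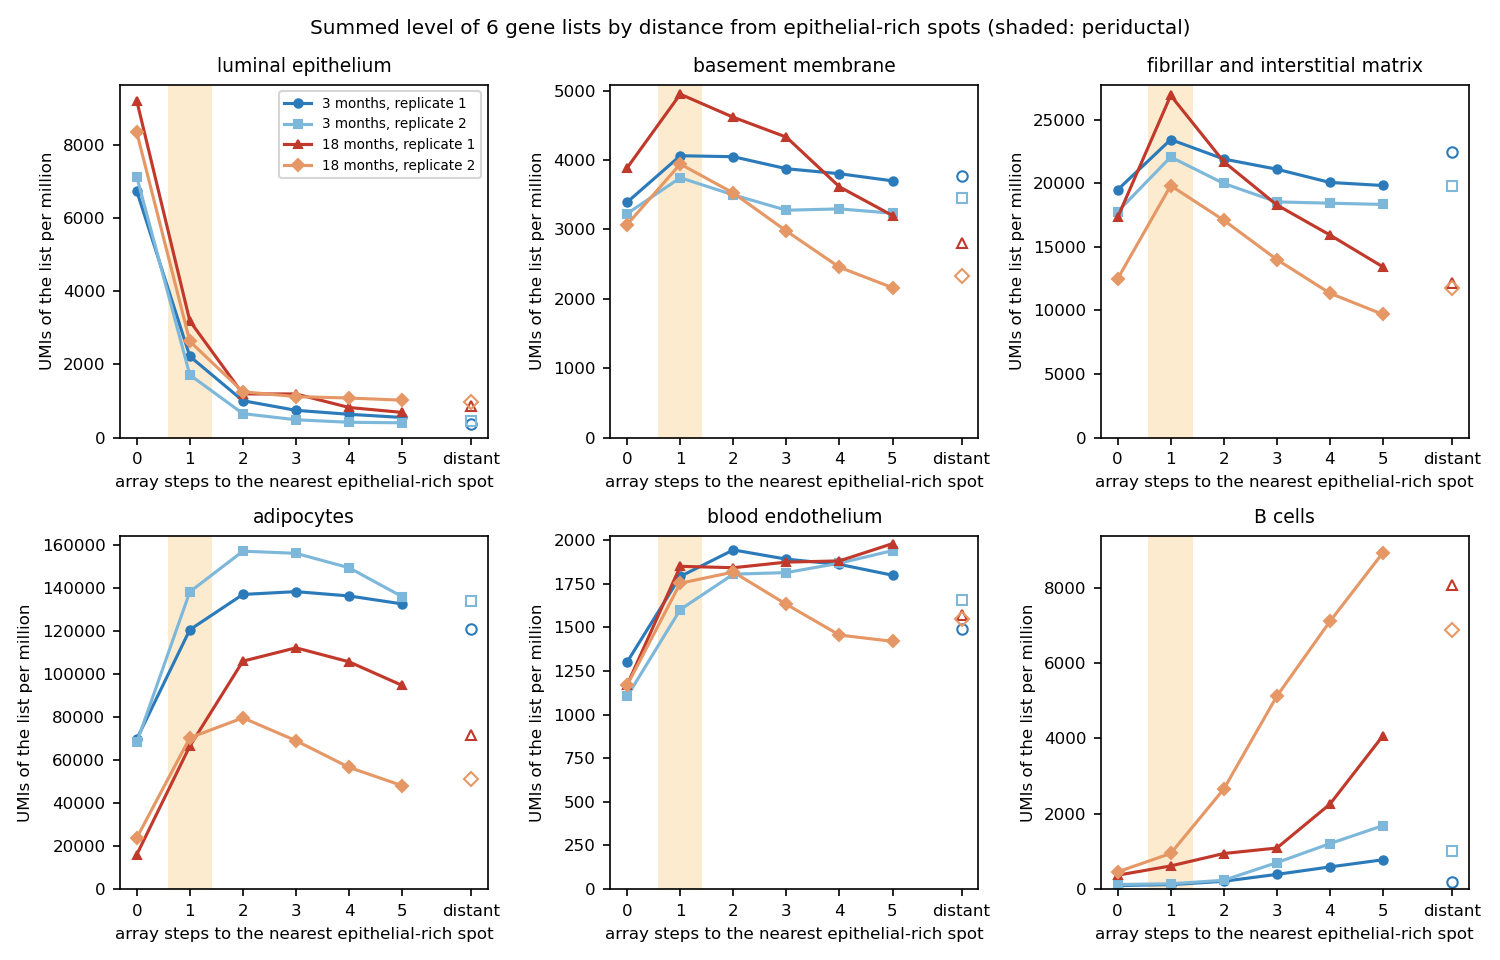
Summed level (CPM) of marker lists by array steps from the nearest epithelial-rich spot (0 is epithelial-rich, 1 is periductal) and in distant spots, 1 line per section. The matrix list peaks at 1 step in all 4 sections (23430, 22060, 26900 and 19810 CPM) and is lower in the distant spots of the 18-month sections (12120 and 11740 CPM).

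Fitted by age, the matrix genes separated. At 3 months, where 2.63% of all genes were higher and 2.45% lower (5.08% in all), Postn and Tnc rose and Eln and Ogn fell among the 30. At 18 months, where 5.98% were higher and 5.07% lower (11.0% in all), 20 rose and none fell, with a median log2 fold change of 0.81. Col1a1, which encodes a type I collagen chain, was at 2665 and 1860 CPM in the rim of the 18-month sections against 1139 and 1099 CPM in their distant spots (1.02, adjusted p = 0.00894). At 3 months it was at 2695 and 2191 CPM against 2437 and 1979 CPM (0.10, adjusted p = 0.967). Rim levels of Col1a1 overlapped between the ages, and the distant levels did not. Col1a2 and Col3a1 showed the same arrangement at 18 months (1.34, adjusted p = 0.00348, and 0.97, adjusted p = 0.0324). Of 24 basement membrane genes, 19 rose at 18 months and 9 at 3 months. These 18-month counts changed with the spots used, and why was not tested. Without lymphoid-rich and muscle-rich spots, 4 matrix genes rose and 1 fell at 18 months, and 12 basement membrane genes rose and 2 fell. With distant spots matched to periductal spots on UMIs per spot, 2 matrix and 7 basement membrane genes rose. With spots 3 to 5 steps away as the reference, 6 and 11 rose.

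Proteases and their inhibitors are given next. Of 20 genes, Mmp3 alone rose over the 4 sections, a share near the 3.05% of all genes. At 3 months none rose and 3 fell (2.45% of all genes fell). At 18 months 9 rose and none fell (5.98% of all genes rose). The 18-month count over all genes, 2085, also changed with the spots used. It was 469 with distant spots matched on UMIs per spot and 2863 without adipocyte-rich spots. The 18-month counts of this list and of the ligands and receptors below are for the main choice of spots. Mmp2, a gelatinase, was at 690 and 436 CPM against 231 and 258 CPM at 18 months (1.19, adjusted p = 0.00199) and at 538 and 515 CPM against 591 and 437 CPM at 3 months. Timp2, an inhibitor of these proteases, was lower in the rim at 3 months (595 and 520 CPM against 1464 and 730 CPM, adjusted p = 0.0315).

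Among 35 tested ligands of duct and stroma signalling, 4 rose in the rim (3.05% of all genes did), and all 4 were lower there than in epithelial-rich spots. Areg encodes the EGF receptor ligand amphiregulin, an oestrogen target in luminal cells. It was at 166, 215, 76.7 and 120 CPM in the rim and at 8.91, 13.8, 10.2 and 10.7 CPM in distant spots (log2 fold change 3.65). Epithelial-rich spots held 583, 1005, 314 and 433 CPM. Wnt4, a progesterone target in luminal cells, was at 22.7, 39.5, 26.9 and 41.2 CPM against 4.23, 8.12, 8.23 and 6.998 CPM (2.25). Wnt5b was at 25.4, 21.5, 152 and 60.2 CPM against 9.21, 8.12, 12.9 and 14.0 CPM (2.18), and Tgfb3, a TGF-beta ligand, was at 62.7, 45.9, 140 and 85.7 CPM against 26.3, 34.7, 39.6 and 33.0 CPM (adjusted p = 0.0074). At 3 months the same 4 rose (2.63% of all genes did) and Tgfb2 and Csf1 fell. At 18 months 10 of the 35 rose (5.98% of all genes did) and Tgfb1 fell. The 10 were those 4 with Fgf1, Hgf, Wnt5a, Rspo1, Pdgfa and Csf1. Csf1, the growth factor of macrophages, also passed the test of the age difference. Fgf10 and Igf1 were called at neither age. Fgf10, which fibroblasts supply to epithelium, was at 101, 109, 63.2 and 94.8 CPM in the rim and 96.5, 103, 68.7 and 76.1 CPM in distant spots. Igf1 was at 634, 643, 394 and 376 CPM against 655, 775, 372 and 253 CPM. Both were higher in the rim than in epithelial-rich spots (1.25, adjusted p = 4.04e-08, and 1.29, adjusted p = 2.18e-08).

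Of 35 receptors and modulators 7 rose (3.05% of all genes did) and none fell, with a median of 0.46. At 3 months 6 rose and Sfrp4 and Csf1r fell (2.63% and 2.45% of all genes did). At 18 months 14 rose and none fell (5.98% of all genes rose). Prlr, the prolactin receptor, was at 449, 283, 86.1 and 217 CPM against 28.8, 38.0, 22.0 and 13.7 CPM. Fgfr2, the receptor for Fgf10 on epithelium, was at 131, 95.7, 74.0 and 101 CPM against 13.1, 19.4, 18.8 and 20.9 CPM. Both belong to the epithelial-rich spots, where Prlr reached 1427, 1397, 245 and 774 CPM. Pgr, the progesterone receptor, and Lgr6, Fzd1, Fzd7 and Sfrp1 of the Wnt pathway were also called. Of the 7 called, 6 were lower in the rim than in epithelial-rich spots, all but Fzd1. Esr1, the oestrogen receptor, did not pass and was nearly level between classes (238, 314, 171 and 171 CPM against 257, 332, 166 and 150 CPM).

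None of 19 adipocyte genes was called over the 4 sections by edgeR or DESeq2, 1 was lower at an unadjusted p under 0.05, and the median log2 fold change was 0.0739. Adipoq, which encodes adiponectin, was at 3147, 4087, 2505 and 2831 CPM in the rim against 3320, 4075, 2676 and 2162 CPM in distant spots. In 18-month section 2, 18 of the 19 had a rim CPM above the distant one, with list sums of 70290 and 51360 CPM, and in the other sections 9, 11 and 8 did. Against epithelial-rich spots, where Adipoq was at 1893, 2181, 581 and 873 CPM, 18 of the 19 were higher in the rim. The same 18 of 19 count held with library size alone. The share of adipocyte-rich spots was lower in the rim (7.14%, 21.3%, 8.50% and 11.7%) than among distant spots (16.7%, 38.6%, 41.6% and 31.3%). An adipocyte-rich spot held at least 3% of its UMIs from Adipoq, Plin1, Plin4, Cidec, Lep, Lpl, Retn, Pnpla2, Lipe and Dgat2. This shorter set leaves out Fabp4, Car3, Cfd and Scd1 of the list summed above. Adipoq is in both, and its rim CPM was above the distant one in 3-month section 2 and 18-month section 2. The share counts spots past a cut, and the list sums add UMIs over all spots of a class. Why the share and the sums differ was not tested.

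None of 14 endothelial genes was called against distant spots by edgeR or DESeq2, 1 was higher at an unadjusted p under 0.05, and all 14 were higher in the rim than in epithelial-rich spots. Cdh5, the endothelial cadherin, was at 162, 152, 163 and 158 CPM in the rim, 153, 151, 132 and 133 CPM in distant spots, and 108, 79.1, 91.7 and 71.8 CPM in epithelial-rich spots. Of 12 pericyte and smooth muscle genes 3 rose, Acta2, Cnn1 and Tagln (3.05% of all genes did). All 3 were lower in the rim than in epithelial-rich spots, and Acta2 and Cnn1 were also on the list of myoepithelial genes. Acta2, smooth muscle actin, is shared with myoepithelium and was at 239, 130, 484 and 491 CPM in the rim against 47.7, 133, 132 and 126 CPM (1.55, adjusted p = 0.0243). In 3-month section 2 the rim level was not above the distant level.

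The genes lower in the rim were led by lymphocyte and skeletal muscle genes, and the makeup of the distant spots moved with them. Lymphoid-rich spots (at least 0.3% of UMIs from lymphocyte genes) numbered 0, 0, 0 and 3 in the rim and 0, 19, 150 and 168 among distant spots. Muscle-rich spots (at least 3% from skeletal muscle genes) numbered 2, 0, 0 and 0 in the rim and 15, 50, 0 and 0 among distant spots. All 11 B cell genes were called lower in the rim over the 4 sections, against 1.97% of all genes, with a median log2 fold change of -2.86. In 3-month section 1, however, 8 of the 11 had a CPM above the distant one, and in each of the other sections 0 did. Summed, they were at 118, 141, 614 and 946 CPM in the rim against 199, 1016, 8059 and 6874 CPM in distant spots. Without lymphoid-rich and muscle-rich spots 3 of the 11 were called, at a median of -0.92. Without 18-month section 2, 1 was called, and without 3-month section 2 or 18-month section 1, 6 were.

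Igkc, the kappa light chain constant region of B and plasma cells, was at 15.97, 56.2, 350 and 485 CPM in the rim against 61.4, 482, 15150 and 2831 CPM in distant spots (-3.23, SE 0.51, adjusted p = 0.00539). Spib, a transcription factor of B cells, was at 1.78, 2.22, 6.72 and 10.7 CPM against 3.17, 32.5, 64.0 and 142 CPM (-3.18, SE 0.35, adjusted p = 0.000743). Glycam1, a ligand for L-selectin on high endothelial venules and also a milk protein, was at 3.55, 4.44, 17.5 and 55.2 CPM against 4.08, 58.5, 935 and 1613 CPM (-4.10, SE 0.63, adjusted p = 0.00482). Its 3-month section 1 values were nearly equal. Cd79b, part of the B cell receptor, was at 6.90, 13.8, 6.72 and 63.5 CPM against 8.001, 82.3, 306 and 790 CPM (-2.86, adjusted p = 0.0131). Glycam1 and Cd79b lost their calls without 18-month section 2 (adjusted p = 0.0863 and 0.151), and Igkc and Cd79b without the lymphoid-rich and muscle-rich spots. Immunoglobulin genes share sequence, and probes may not separate all of them.

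Of 18 T and NK cell genes 6 were lower and none higher over the 4 sections (1.97% of all genes were lower), and none was called without 18-month section 2. At 18 months 15 were lower (5.07% of all genes). At 3 months 1 was, near the 2.45% of all genes, and in 3-month section 1, 10 of the 18 were above the distant level. Cd3e, a T cell receptor subunit, was at 10.7, 6.42, 13.5 and 22.3 CPM in the rim and 8.60, 9.78, 172 and 99.7 CPM in distant spots, so the gap was wide at 18 months and small at 3 months. Of 10 dendritic cell and MHC class II genes 5 were lower, against the same 1.97%. Cd74, the invariant chain of MHC class II, was at 1978, 1598, 4010 and 3216 CPM in the rim against 4257, 2899, 6106 and 9728 CPM (-1.05, SE 0.18, adjusted p = 0.00947). It was lower in all 4 sections, with the widest gap in 18-month section 2.

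Macrophage genes showed no call over the 4 sections by edgeR (17 tested, 1 higher and 1 lower at an unadjusted p under 0.05), while DESeq2 called 1 lower. At 3 months 8 of 17 were lower in the rim and none higher (2.45% of all genes were lower). At 18 months 2 were higher and none lower (5.98% of all genes were higher). Mrc1, the mannose receptor of resident macrophages, was at 103 and 87.6 CPM against 234 and 133 CPM at 3 months (-0.95, adjusted p = 0.007). At 18 months it was at 215 and 187 CPM against 113 and 137 CPM (0.71, adjusted p = 0.0267). By section, 1, 4, 12 and 7 of the 17 were above the distant level. Without 3-month section 1, which leaves 1 section at that age, none was called at 3 months and the median log2 fold change was -0.491, against -0.888 with both. Without lymphoid-rich and muscle-rich spots 7 of the 17 were lower over the 4 sections, and at 18 months 2 were lower.

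At 3 months all 13 skeletal muscle genes were called lower in the rim (2.45% of all genes were), although 2 of the 13 had a rim CPM above the distant one in 3-month section 1. At 18 months edgeR called none of the 13, and none passed at an unadjusted p under 0.05. Summed, they were at 402 and 108 CPM in the rim against 1607 and 8016 CPM in distant spots at 3 months. The 18-month sums were 116 and 92.3 CPM against 110 and 105 CPM. Tnnt3, fast skeletal troponin T, was at 19.9 and 3.45 CPM against 91.3 and 462 CPM at 3 months, and Casq1, the calcium store protein calsequestrin, at 3.94 and 0.493 CPM against 24.0 and 129 CPM. With the muscle-rich and lymphoid-rich spots left out, 3 of the 13 were lower at 3 months. Myoc, which encodes myocilin, was lower in the rim in all 4 sections (8.48, 5.67, 8.07 and 13.2 CPM against 101, 149, 12.6 and 39.8 CPM) and kept its call without each section in turn (adjusted p up to 0.0128).

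Secreted innate defence genes went both ways. Of 17 tested, 5 rose and 2 fell, where 3.05% of all genes rose and 1.97% fell. The 5, Lcn2, Ltf, Slpi, Wfdc2 and Cxcl15, were all lower in the rim than in epithelial-rich spots. Ltf, which encodes the iron-binding protein lactoferrin, was at 172, 101, 141 and 237 CPM against 8.45, 6.09, 27.6 and 10.9 CPM in distant spots. The 2 that fell encode complement proteins. C3 was at 1247, 1239, 584 and 589 CPM against 1824, 1619, 1276 and 1092 CPM (-0.74, SE 0.17, adjusted p = 0.0336), and Cfb at 71.4, 67.1, 95.5 and 101 CPM against 127, 107, 159 and 190 CPM (-0.80, SE 0.12, adjusted p = 0.00424). Both were lower in the rim than in distant spots in every section, and both were higher in the rim than in epithelial-rich spots (0.87, adjusted p = 5.73e-06, and 0.98, adjusted p = 1.72e-06).

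The smaller lists gave few calls over the 4 sections, where 3.05% of all genes were higher and 1.97% lower. Of 10 plasma cell genes 4 were lower and 1, Sdc1, higher. Of 8 mast cell genes Kit was higher, which luminal progenitors also carry. Lyve1, a marker of lymphatic endothelium and some macrophages, was the one lower member among 6 lymphatic genes (8.68, 1.73, 9.41 and 9.89 CPM against 26.3, 11.4, 18.6 and 18.0 CPM, adjusted p = 0.0137). Among 10 Schwann cell and nerve genes 1, Sox10, was higher and 2 lower. Sdc1, Kit and Sox10 were each lower in the rim than in epithelial-rich spots. Of 12 genes with known links to ageing, Cdkn1a, Cxcl13 and Mzb1 were lower. Cdkn1a, which encodes the cell cycle inhibitor p21, was at 21.1, 23.9, 48.4 and 33.8 CPM against 42.7, 33.8, 68.8 and 58.2 CPM (-0.72, SE 0.15, adjusted p = 0.0203).

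Alox12e, Calca, Wfdc12 and Entpd8, looked at for their 18-month levels, were each higher in both 18-month rims than in both 3-month rims. In the 18-month rims Alox12e was at 64.6 and 78.3 CPM against 7.84 and 6.89 CPM in distant spots (log2 fold change 3.31, adjusted p = 9.12e-06), and Calca at 53.8 and 48.6 CPM against 11.3 and 6.04 CPM (2.64, adjusted p = 5.59e-05). Wfdc12 was at 63.2 and 10.7 CPM against 9.08 and 7.85 CPM (1.88, adjusted p = 0.00891), while Entpd8 did not pass (9.41 and 9.89 CPM against 5.90 and 4.35 CPM, adjusted p = 0.204). For all 4 genes the 18-month epithelial-rich spots were above the rim.

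The difference between ages was tested as an interaction in the fit of both ages. It called 582 of 18870 genes (3.08%), 291 more positive at 18 months (1.54%) and 291 more negative (1.54%). By list, 9 of 30 matrix, 4 of 10 fibroblast and 4 of 24 basement membrane genes were more positive at 18 months. So were 6 of 20 protease and inhibitor and 4 of 17 macrophage genes, and 9 of 18 T and NK cell genes were more negative. The matrix and fibroblast lists share members. Eln, which encodes elastin, was at 117 and 84.4 CPM in the rim against 197 and 140 CPM in distant spots at 3 months, and at 147 and 128 CPM against 78.2 and 80.2 CPM at 18 months. The difference of its log2 fold changes was 1.61 (adjusted p = 0.00493), and the classes changed order with age. Mmp3, Lama2 and Lum passed this test (1.45, adjusted p = 0.0248, 1.06, adjusted p = 0.036, and 1.09, adjusted p = 0.0452), and Wnt5b did too (1.52, adjusted p = 0.0418). Among the 10 rim genes, 2 were called at 3 months (Frem1 and Slc39a8) and 7 at 18 months.

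The number of called age differences changed with the distant spots used and with thinning, and the source of these changes was not tested. With the same spots thinned to 500 UMIs edgeR called 4, with 674 at an unadjusted p under 0.05. Without lymphoid-rich and muscle-rich spots edgeR called 0 genes, with 2113 at an unadjusted p under 0.05. With distant spots matched on UMIs it called 0, with 911 at an unadjusted p under 0.05, and with spots 3 to 5 steps away as the reference 3. DESeq2, run on the full classes only, called 334. The ages also differed in depth, in the number of distant spots and in their lymphoid-rich and muscle-rich spots, as given above, and no more than 2 sections stood for each age.

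**Figure D4:**
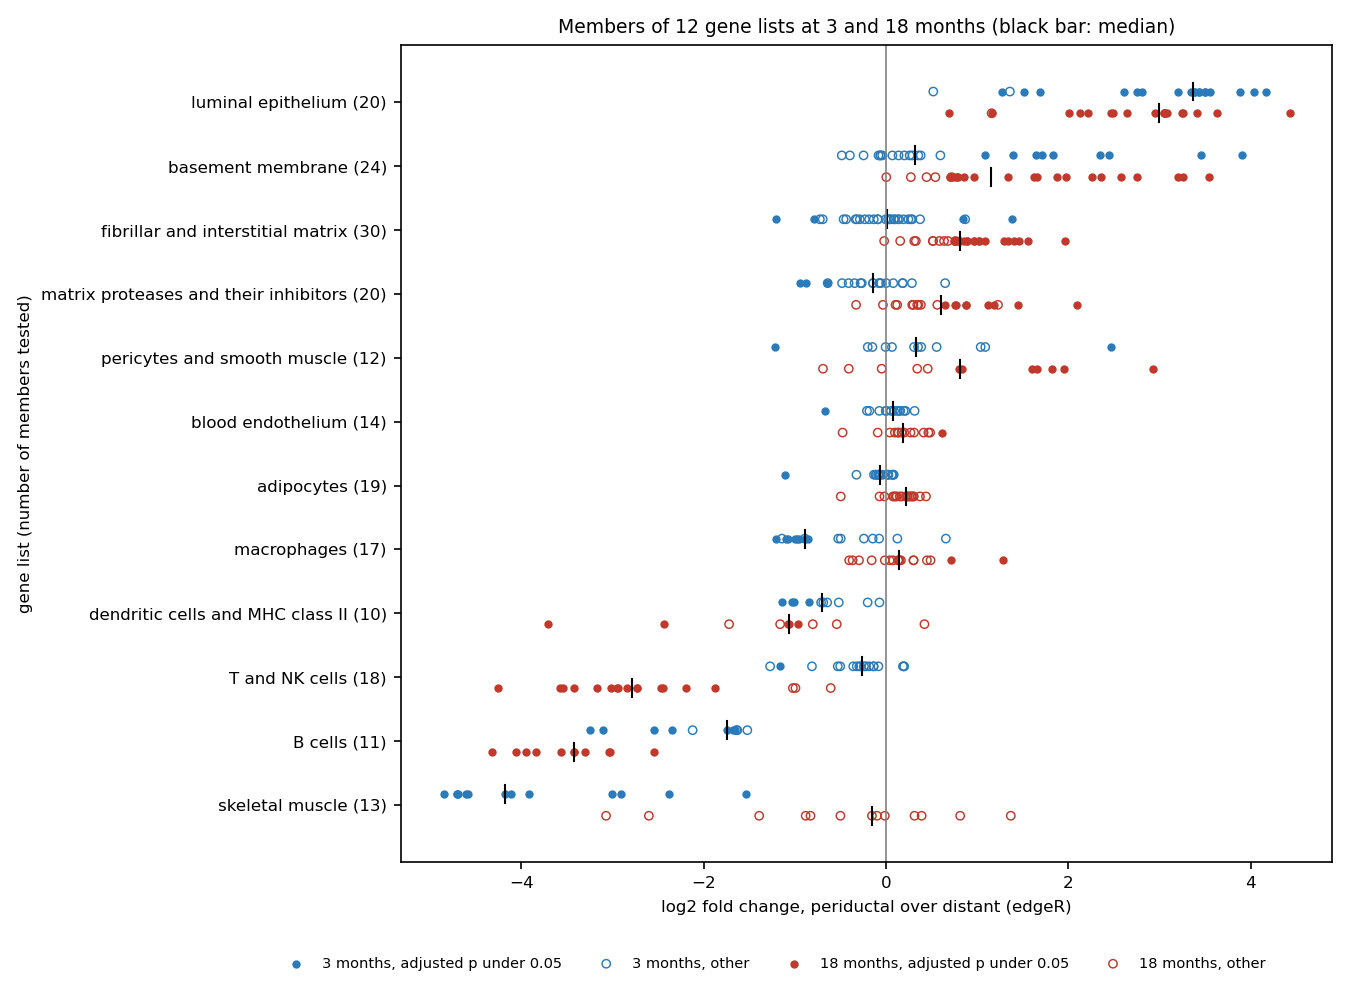
Log2 fold change of periductal over distant spots (x) for the members of 12 gene lists (y), at 3 months (blue, upper row) and 18 months (red, lower row). Each point is 1 gene, filled where the adjusted p was under 0.05, and black bars are medians. Matrix genes spread around 0 at 3 months (median 0.0111) and lie mostly above it at 18 months (median 0.81).

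The authors' deposited table of spatial autocorrelation, Moran's I (0 where a gene's levels show no spatial clustering), bears on the rim genes without using the classes. It gave Mmp3 0.121 and 0.163 in the 3-month sections and 0.120 and 0.0559 in the 18-month sections. For Lum the authors' deposited table gave 0.188, 0.144, 0.105 and 0.0971. Nes, Frem1 and Slc39a8 were nearer 0 in the authors' deposited table, with Nes at 0.0112, 0.0208, 0.00681 and -0.000112. The authors' deposited table gave Frem1 0.0398, 0.0138, 0.00412 and 0.00144, and Slc39a8 0.0227, 0.038, 0.0112 and 0.00136. It gave Hsd11b1 0.231, 0.114, 0.0255 and 0.0131, and Sparcl1 0.15, 0.144, 0.0516 and 0.0279. Peg3, Lama2 and Adamts12 ran from 0.00696 to 0.106 in the authors' deposited table. Moran's I does not say whether a gene's clusters lie around ducts.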

How the data were processed

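Gene expression was measured on 10x Genomics Visium capture spots in 4 mammary gland sections. The authors deposited raw UMI counts per spot and gene with tissue positions, made with Space Ranger 2.0.0 per the file headers on build mm10 per the submitters' processing notes, and a table of Moran's I, a spatial autocorrelation score. The deposited counts were not normalized. Spots needed 500 UMIs, epithelial-rich spots included. Spot positions are the authors' array rows and columns, and 1 array step is 1 move to a direct neighbour.

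UMI counts were summed per section and class (8 sums a contrast) and tested with edgeR 4.0.16 in R 4.3.3 (quasi-likelihood, TMM, filterByExpr, section as a block, Benjamini-Hochberg, threshold 0.05). One further fit gave each age its own class effect and tested their difference. A positive log2 fold change means higher in periductal spots. Levels are CPM (UMIs per 1000000 of a sum), with no gene length correction, so they are compared within a gene. DESeq2 1.42.0 was an alternative, together with other spot minimums, epithelial thresholds, reference spots, scalings and filters, thinned spots and each section left out. In simulated counts, 68, 72 and 60 of the better-counted genes were given 1.5-fold, 2-fold and 4-fold changes, with the same spread for all genes. Recovery of low-count or more variable genes was not simulated. On 18847 genes the periductal against distant test recovered 33.8% of 1.5-fold, 80.6% of 2-fold and 100% of 4-fold changes. For the age difference, on 18848 genes, it recovered 1.47%, 6.94% and 63.3%.

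The members, the gene lists and their rules were chosen with earlier results of these data known. Named genes had a mean of 10 CPM or more, an adjusted p under 0.05 and 1 direction in 4 sections. They were the 10 largest fold changes each way, the 10 largest at or above the epithelial-rich level in every section, the 5 largest age differences each way (10 CPM or more and past the threshold only), and up to 4 members of each list with the highest mean level, besides members behind small counts. Other genes of a list given as examples were chosen after their values were seen. Krt79, Elovl6, Folr2, Ccl21a and C1s1 of the lists are not among the 19465 genes of the matrices. Some genes that these rules name are not reported here. Positions come from RefSeq (GRCm38.p6).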

Additional observations from a re-analysis of the deposited data

Results flagged for a closer look

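For the genes below, the difference between periductal and distant spots itself differed between the ages, by the interaction test of edgeR (2 sections an age), and each value is the 18-month log2 fold change minus the 3-month one. Ldb3, a protein of the sarcomere Z-disc, had 3.88 (adjusted p = 0.0197), with 5.32 and 4.93 CPM in the rim against 11.2 and 66.8 CPM in distant spots at 3 months and 12.1 and 14.0 CPM against 5.98 and 5.41 CPM at 18 months. Ryr1, the muscle calcium release channel, had 3.81 (adjusted p = 0.0191), with distant levels of 13.3 and 61.5 CPM at 3 months and 4.11 and 3.82 CPM at 18 months. Mal, a protein of myelin and epithelial membranes, had 2.89 (adjusted p = 0.0056), lower in the rim at 3 months (8.48 and 7.15 CPM against 16.5 and 21.4 CPM) and higher at 18 months (13.5 and 22.3 CPM against 5.12 and 7.21 CPM). Myoc had 2.87 (adjusted p = 0.0122).

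In the other direction, Ighg2b had -5.15 (adjusted p = 0.0146) and Ighg2c -4.95 (adjusted p = 0.0226). Both are immunoglobulin heavy chain genes of near-identical sequence that probes may not separate. Their distant levels at 18 months differed widely between the sections (1033 and 22.3 CPM for Ighg2b, 781 and 37.0 CPM for Ighg2c). Cd8b1, a co-receptor chain of cytotoxic T cells, had -4.01 (adjusted p = 0.0419), with 1.34 and 2.47 CPM in the rim and 68.0 and 22.1 CPM in distant spots at 18 months. Ccl22, a chemokine of mature dendritic cells, had -3.75 (adjusted p = 0.00605), with 5.38 and 5.77 CPM against 120 and 73.5 CPM at 18 months. Ly6d, a surface protein of epithelial and early B cells, had -3.68 (adjusted p = 0.00287), with 262 and 198 CPM in the rim against 15.8 and 43.8 CPM at 3 months and 83.4 and 120 CPM against 114 and 225 CPM at 18 months. None of these differences passed the threshold without lymphoid-rich and muscle-rich spots, where no gene did.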

How the results depend on the processing

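Depth kept its direction under the alternatives run on it (0.144 to 1.07 on the log2 scale), which leave out thinned and matched spots, where depth is set equal. Counts of called genes moved by over 1.5 times as follows, from 948 over the 4 sections, 959 at 3 months, 2085 at 18 months, 582 for the age difference and 4636 against epithelial-rich spots. With 5 UMIs and 0.5% as the epithelial threshold they were 1739 over the 4 sections and 1566 at 3 months. Only spots without a rule-gene UMI gave 238, 70, 164 and 23 for the first 4 results. The sections then kept 16, 14, 47 and 200 periductal spots. Leaving out lymphoid-rich and muscle-rich spots gave 1482 over the 4 sections and 0 for the age difference, and leaving out adipocyte-rich spots gave 877 for the latter. Spots thinned to 500 UMIs gave 266, 218, 119, 4 and 646. A reference over 10 rows or 20 columns away gave 263, 98, 129 and 0 (620 at an unadjusted p under 0.05 for the age difference). With a reference at 3 to 5 array steps, 966 were called at 18 months and 3 for the age difference. With distant spots matched on UMIs, an alternative chosen after seeing the data, the counts were 469 at 18 months and 0 for the age difference. DESeq2 gave 551 at 3 months, 334 for the age difference and 2761 against epithelial-rich spots. Without the section block the counts were 344, 596, 53 and 831 (4 sections, 3 months, age difference, epithelial-rich). The section block pairs the 2 classes of 1 section and is part of the design. A replicate block, pairing sections of equal number across ages, gave 990 for the age difference. The labels tie those numbers to no shared animal or batch. Leaving out 1 section gave 386 to 1086, 558 to 1247, 1327 to 2300, 389 to 747 and 3296 to 4478. The share of higher genes among those called over the 4 sections, 60.8%, was 50.3% without lymphoid-rich and muscle-rich spots, 19.7% in spots without a rule-gene UMI, 80.2% with the farther reference and 87.8% without the block. Against epithelial-rich spots, library size alone moved it from 57.8% to 20.1%. Single genes changed sign in 5 cases. Hsd11b1 was at -0.0973 in spots without a rule-gene UMI and, against epithelial-rich spots, at -0.188 after thinning. For the age difference Ighg2c, Cd8b1 and Ccl22 were at 0.765, 3.52 and 2.75 in spots without a rule-gene UMI. Dropping spots or genes lowers the counts tested, and otherwise the cause was not tested.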
